A study of Caenorhabditis elegans with 12 samples.

Results

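The 9 genes described here encode secreted or membrane-bound proteins of the apical extracellular matrix of Caenorhabditis elegans, the layer on the outward face of epithelia, and proteins that worms need for molting. They are fbn-1, noah-1, noah-2, dpy-6, let-653, lpr-3, mlt-8, mlt-10 and mlt-11, chosen by name, and all 9 were found among the 19568 genes of the deposited table. All 9 also passed the filter on low values, a mean of 10 or more normalized counts over the libraries, which left 15717 genes for testing. Whole L4 larvae, raised on HT115 bacteria, gave the total RNA, which was extracted with Trizol and sequenced as stranded paired-end libraries. There were 3 biological replicates of each of 4 genotypes, 12 libraries in all. The genotypes were the lonp-1(cmh24) mrps-38(P210L) double mutant, lonp-1(cmh24), mrps-38(P210L) and wildtype. The product of lonp-1 is LON, a protease inside mitochondria, and that of mrps-38 belongs to the small subunit of the mitoribosome. The labels do not say what cmh24 changes in the gene. They call the replicates biological but do not name separate cultures, so p-values measure the spread between these libraries.

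Nematode larvae shed and rebuild their collagen cuticle at every molt. Before each new cuticle is laid down, the epidermis secretes a transient precuticle of zona pellucida (ZP) domain proteins, lipocalins and related glycoproteins, which shapes the surface and is then cleared. Transcripts of precuticle and molting genes are known to pulse once per larval stage, under transcription factors such as the nuclear receptor NHR-23, and the last molt follows the L4 stage.

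The libraries held 22614493 to 22890539 reads in genes. The lonp-1 transcript averaged 1437 ± 43.7 normalized counts in the double mutant, 1339 ± 5.8 in lonp-1(cmh24), 1613 ± 48.6 in mrps-38(P210L) and 1688 ± 61.9 in wildtype (SD, n = 3 each), so it was present in every genotype. The mrps-38 transcript was not analysed here. Adult transcripts differed between the genotypes. Vitellogenins, the yolk proteins of the adult intestine, took 2.45% of reads in the double mutant, 0.949% in lonp-1(cmh24), 0.00171% in mrps-38(P210L) and 0.104% in wildtype, and within mrps-38(P210L) their summed count ran from 166 to 1006, the highest in replicate 3. The adult cuticle collagen col-19 averaged 55462 ± 643 normalized counts in the double mutant, 25742 ± 1916 in lonp-1(cmh24), 68.5 ± 106 in mrps-38(P210L) and 4113 ± 1338 in wildtype (SD, n = 3 each). The markers of the adult cuticle listed here were 4 collagens, col-19, col-7, col-62 and rol-6, and the 4 did not move as one. Against wildtype, 3 were higher and 1 lower in the double mutant, none was higher and 1 lower in lonp-1(cmh24) (1 and 1 with reads scaled to the total), and 1 was higher and 3 lower in mrps-38(P210L). Their summed count averaged 62992 ± 696 in the double mutant, 34954 ± 2272 in lonp-1(cmh24), 21185 ± 1141 in mrps-38(P210L) and 19194 ± 2721 in wildtype (SD, n = 3 each). In mrps-38(P210L) this sum was near that of wildtype although 3 of the 4 were lower (median log2 difference -6.3). The sum therefore does not stand for each of the 4. All 6 vitellogenins rose in the double mutant and fell in mrps-38(P210L) against wildtype, and 5 rose in lonp-1(cmh24). These levels moved with genotype beside every result below, and their part in those results was not tested.

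Together the 9 genes took 0.0295 ± 0.0002% of reads in the double mutant, 0.164 ± 0.0219% in lonp-1(cmh24), 0.329 ± 0.00839% in mrps-38(P210L) and 0.29 ± 0.00289% in wildtype (SD, n = 3 each). Per gene, every library of the double mutant lay below every library of the other 3 genotypes for all 9 genes. The share of all tested genes that separate in this way is not given here, so how unusual that is was not tested. In lonp-1(cmh24) all 9 were lower than in wildtype, beside 32.1% of all tested genes. In mrps-38(P210L) 6 were higher, beside 31.5% of all tested genes. With reads scaled to the total 3 of these 6 remained called, where 2652 of the 15717 tested genes were higher. The libraries were of whole worms, so fewer cells of a type and less RNA per cell cannot be told apart.

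The first group of matrix proteins carries ZP domains, modules with which secreted proteins polymerise. fbn-1 (WBGene00022816, WBcel235 chromosome III, 7625386 to 7641078, plus strand, 9 annotated transcripts) encodes a fibrillin-related protein that lines the embryonic and larval epidermis. It had 198, 214 and 203 normalized counts in the double mutant, 2037, 1595 and 1740 in lonp-1(cmh24), 4067, 3909 and 3913 in mrps-38(P210L), and 3518, 2530 and 3210 in wildtype. No pair of genotypes overlapped, with the double mutant far below the rest and mrps-38(P210L) on top. The difference between the double mutant and wildtype was -3.89 ± 0.11 on the log2 scale (limma, adjusted p = 1.84e-11), or 14.8-fold lower, the largest among the 9 genes.

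noah-1 and noah-2 encode related ZP-domain proteins of the precuticle, named after the Drosophila protein NompA, that worms need to molt and to hold their shape. For noah-1 (WBGene00016422, chromosome I, 5874416 to 5878958, minus strand) the libraries gave 778, 780 and 845 normalized counts in the double mutant, 5617, 4204 and 4486 in lonp-1(cmh24), 14768, 14158 and 13558 in mrps-38(P210L), and 9902, 9160 and 9588 in wildtype. For noah-2 (WBGene00009926, chromosome IV, 14091254 to 14096626, plus strand) they gave 934, 998 and 914 in the double mutant, 6342, 4782 and 5047 in lonp-1(cmh24), 17965, 17657 and 16340 in mrps-38(P210L), and 11368, 9323 and 10825 in wildtype. Both genes kept one order of genotypes with no overlap, mrps-38(P210L) above wildtype, wildtype above lonp-1(cmh24), and the double mutant lowest. On the log2 scale the double mutant differed from wildtype by -3.57 ± 0.09 for noah-1 and by -3.46 ± 0.10 for noah-2 (limma, adjusted p = 1.59e-12 and 1.25e-11).

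let-653 (WBGene00002827, chromosome IV, 11885613 to 11891082, plus strand) encodes a ZP-domain glycoprotein that keeps narrow epithelial tubes such as the excretory duct open. Its normalized counts were 135, 128 and 150 in the double mutant, 695, 678 and 659 in lonp-1(cmh24), 1324, 1389 and 1381 in mrps-38(P210L), and 1332, 1133 and 1293 in wildtype. Here mrps-38(P210L) and wildtype overlapped, while lonp-1(cmh24) and the double mutant stood apart below them. The double mutant was 9.02-fold lower than wildtype (log2 difference -3.17 ± 0.07, limma, adjusted p = 1.18e-12).

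dpy-6 (WBGene00001068, chromosome X, 8450381 to 8455640, minus strand) encodes a mucin-like protein, and mutants are short and stout. Its libraries held 113, 110 and 111 normalized counts in the double mutant, 1014, 812 and 884 in lonp-1(cmh24), 1352, 1460 and 1391 in mrps-38(P210L), and 1819, 1359 and 1719 in wildtype. Wildtype replicate 2 lay among the mrps-38(P210L) libraries, and the other wildtype libraries were above them. The double mutant was 14.4-fold lower than wildtype (-3.85 ± 0.10 on the log2 scale, limma, adjusted p = 3.35e-12).

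lpr-3 (WBGene00012261, chromosome X, 11057401 to 11059793, plus strand) encodes a lipocalin, a secreted carrier-type protein of the precuticle. It had 647, 686 and 631 normalized counts in the double mutant, 4469, 3748 and 3816 in lonp-1(cmh24), 11115, 11674 and 11591 in mrps-38(P210L), and 9732, 8955 and 9618 in wildtype. All 4 genotypes were separate. Set against wildtype, the double mutant was 14.4-fold lower (-3.85 ± 0.07 on the log2 scale, limma, adjusted p = 6.55e-14).

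The mlt genes were named for larvae that fail to shed the old cuticle when the gene is knocked down. mlt-11 (WBGene00012186, chromosome V, 20667205 to 20678537, plus strand, 8 annotated transcripts) encodes a secreted protein with Kunitz-type protease inhibitor domains. It had 1115, 1194 and 1072 normalized counts in the double mutant, 7574, 5206 and 5850 in lonp-1(cmh24), 18481, 18631 and 17058 in mrps-38(P210L), and 12369, 11418 and 12387 in wildtype. The genotypes did not overlap and stood in the same order as for the noah genes. The double mutant was 10.7-fold lower than wildtype (-3.42 ± 0.11 on the log2 scale, limma, adjusted p = 4.48e-11).

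mlt-10 (WBGene00015646, chromosome II, 546705 to 552032, plus strand) encodes a proline-rich secreted protein and is widely used as a reporter of the molting cycle. Its normalized counts were 1110, 1107 and 1140 in the double mutant, 4420, 3147 and 3688 in lonp-1(cmh24), 9337, 9722 and 8513 in mrps-38(P210L), and 8230, 10225 and 9021 in wildtype. The mrps-38(P210L) and wildtype libraries were intermixed. mlt-8 (WBGene00021095, chromosome II, 569210 to 572110, minus strand) had 1369, 1366 and 1411 in the double mutant, 4001, 3398 and 3475 in lonp-1(cmh24), 10295, 10232 and 9860 in mrps-38(P210L), and 7316, 8171 and 7730 in wildtype. For mlt-8 no genotypes overlapped. In the double mutant mlt-10 was 8.14-fold and mlt-8 was 5.59-fold lower than in wildtype, the smallest differences among the 9 genes (log2 differences -3.03 ± 0.11 and -2.48 ± 0.06, limma, adjusted p = 1.98e-10 and 2.29e-12).

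**Figure D1:**
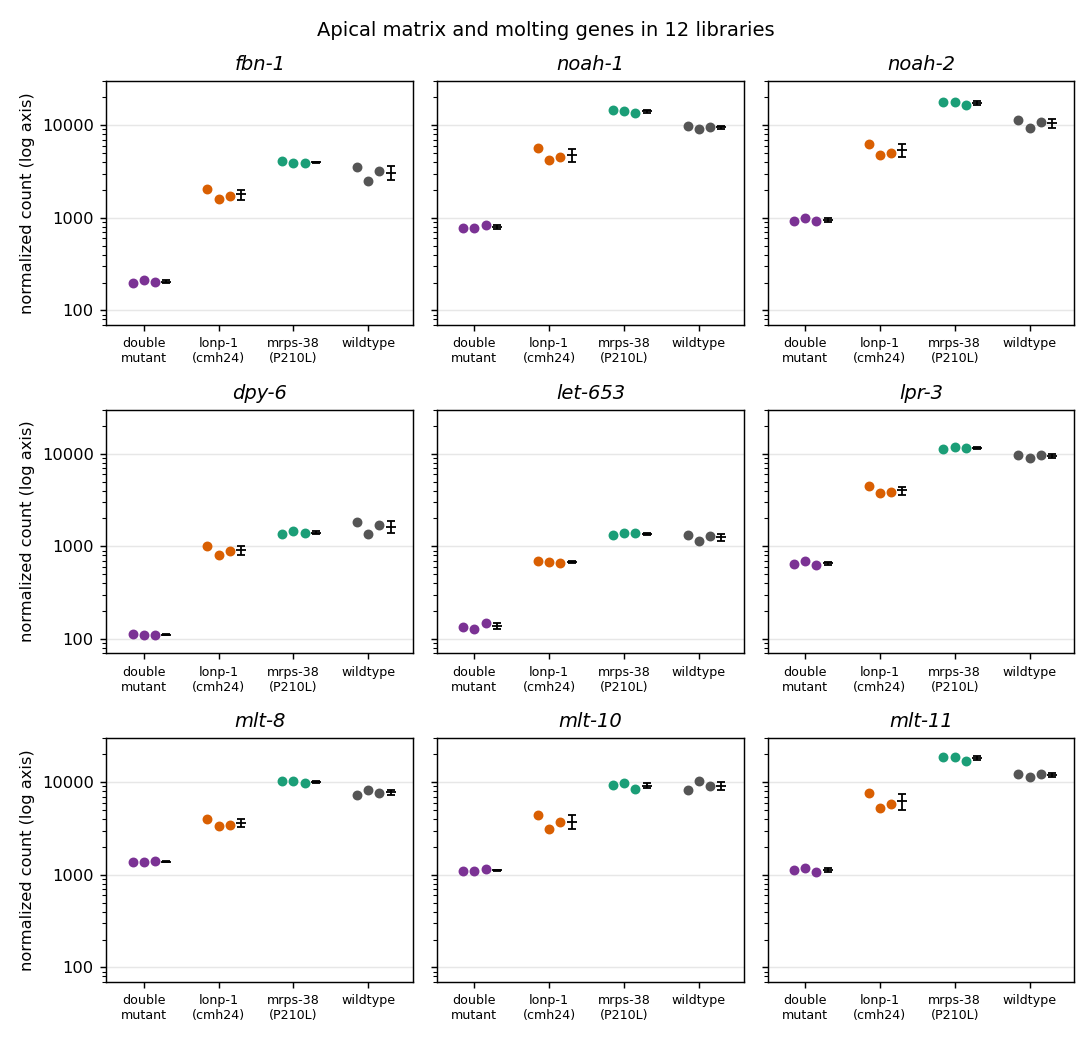
Normalized count of each of the 9 genes in each of the 12 libraries, on a log axis, with a point per library and, beside the points, the mean and bars of 1 SD (n = 3), genotypes from left to right double mutant, lonp-1(cmh24), mrps-38(P210L) and wildtype. In each panel the double mutant lies lowest, and lonp-1(cmh24) lies below wildtype, as for noah-2 with means of 949 in the double mutant and 5390 in lonp-1(cmh24), against 10505 in wildtype.

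The libraries of a genotype differed together. Replicate 1 of lonp-1(cmh24) was the highest of its group for all 9 genes, and replicate 2 of wildtype was the lowest of its group for 7 and the highest for mlt-8 and mlt-10. Relative spread was narrowest in the double mutant for mlt-10 (coefficient of variation 1.64%) and widest in lonp-1(cmh24) for mlt-11 (19.7%).

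Levels of different genes were compared per length, as FPKM. mlt-8 had the highest FPKM in every genotype, 56.9 ± 1.19 in the double mutant, 173 ± 13.7 in lonp-1(cmh24), 346 ± 5.47 in mrps-38(P210L) and 315 ± 23.6 in wildtype (SD, n = 3 each). In wildtype it was followed by lpr-3 (206 ± 5.0), noah-2 (184 ± 15) and mlt-10 (177 ± 23). Between libraries mlt-10 (156 to 202) overlapped with noah-2 (168 to 197) and with lpr-3 (200 to 209). noah-1 (113 ± 2.4) and mlt-11 (55.4 ± 1.44) came next. let-653 (21.4 ± 1.39), dpy-6 (18.2 ± 2.35) and fbn-1 (14.5 ± 2.11) were the least abundant per length in wildtype, and the neighbours among them overlapped. In the double mutant mlt-10 had the next highest FPKM after mlt-8 (21.8 ± 0.422), ahead of noah-2 (16.8 ± 0.678) and lpr-3 (14.4 ± 0.539), and fbn-1 stayed last at 0.978 ± 0.032.

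Setting lonp-1(cmh24) against wildtype addressed the effect of the protease mutation alone. All 9 genes fell, by 1.72-fold for fbn-1 to 2.45-fold for mlt-10, beside 32.1% of all tested genes called lower and 30.6% called higher. Log2 differences ran from -1.30 ± 0.11 for mlt-10 and -1.24 ± 0.07 for lpr-3 to -0.85 ± 0.10 for dpy-6 and -0.78 ± 0.11 for fbn-1, with a median of -0.97 beside -0.06 over all tested genes (limma, adjusted p = 5.83e-09 to 4.85e-05). No gene of the 9 overlapped between these genotypes, and the share of all tested genes without overlap is not given here. Markers of some other tissues were lower too, 10 of 10 for body wall muscle (median log2 difference -0.99), 5 of 6 for the pharynx (-0.95) and 7 of 9 for neurons (-0.48). None of these was higher (1 neuron marker with reads scaled to the total). Of 9 germline markers, 5 were higher and 2 lower (median 0.31, 7 and 1 with reads scaled to the total). Of 7 intestine markers, 1 was higher and 1 lower (median -0.07, 3 and 0 with reads scaled to the total). Their part in the result was not tested. With reads scaled to the library total the median over all genes shifted by 0.23, and the 9 genes remained lower under each of 23 alternatives, between -1.42 and -0.55.

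Setting mrps-38(P210L) against wildtype addressed the mitoribosomal mutation alone. noah-2 (0.73 ± 0.10 on the log2 scale), mlt-11 (0.58 ± 0.11), noah-1 (0.57 ± 0.09), mlt-8 (0.39 ± 0.06), fbn-1 (0.37 ± 0.11) and lpr-3 (0.28 ± 0.07) rose (limma, adjusted p = 3.43e-05 to 0.00953). That is 6 of 9 beside 31.5% of all tested genes called higher and 34.7% called lower, and none of the 9 was called lower. For let-653 the log2 difference was 0.13 ± 0.07, for mlt-10 0.01 ± 0.11 and for dpy-6 -0.21 ± 0.10, and none of these passed (limma, adjusted p = 0.152, 0.95 and 0.0859). The calls, and for let-653 and mlt-10 the sign, depended on the scaling. With reads scaled to the library total, under which the overall median shifted by -0.25, noah-1, noah-2 and mlt-11 remained higher, fbn-1 (0.12), mlt-8 (0.13) and lpr-3 (0.03) were no longer called, let-653 and mlt-10 turned to -0.13 and -0.25 without being called, and dpy-6 fell (-0.46). Without wildtype replicate 2, dpy-6 was also called lower, at -0.34. Without replicate 3 of mrps-38(P210L) the count was again 6 higher and 0 lower. Of the markers, 7 of 10 for body wall muscle, 5 of 6 for the pharynx and 9 of 9 for neurons were higher and none lower. With reads scaled to the total these lists had 0, 1 and 5 higher and 3, 0 and 0 lower. Of 7 intestine markers 5 were higher and none lower (2 and 0 with reads scaled to the total). All 9 germline markers and all 31 tested major sperm protein genes were lower. Their part in the result was not tested.

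The double mutant compared with wildtype showed all 9 genes lower, from 5.59-fold for mlt-8 to 14.8-fold for fbn-1, beside 33.6% of all tested genes called lower and 40.9% called higher. The median log2 difference was -3.46, beside 0.09 over all tested genes. Of all tested genes, 0.159% had a log2 difference as low as that of fbn-1 or lower, and 2.46% one as low as that of mlt-8 or lower. All 10 body wall muscle markers (median log2 difference -0.34), all 6 pharynx markers (-0.45) and 8 of 9 neuron markers (-0.68) were lower too. Other lists went up, with 8 of 9 germline markers (0.74), 4 of 7 intestine markers (0.38) and 29 of 31 major sperm protein genes (2.71) higher. None of those 3 lists had a marker called lower. The part of the markers in the result was not tested.

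Adding the mitoribosomal mutation to lonp-1(cmh24) worms was addressed by the double mutant against lonp-1(cmh24), and again all 9 genes fell, beside 24.5% of all tested genes called lower and 29.8% called higher. fbn-1 was 8.64-fold lower in the double mutant than in lonp-1(cmh24), and dpy-6 was 8.02-fold lower (log2 differences -3.11 ± 0.11 and -3.0 ± 0.10, limma, adjusted p = 5.76e-10 and 1.67e-10). lpr-3, noah-1, noah-2, mlt-11 and let-653 were 6.11-, 5.91-, 5.64-, 5.44- and 4.89-fold lower. mlt-10 was 3.32-fold lower (-1.73 ± 0.11) and mlt-8 was 2.62-fold lower (-1.39 ± 0.06, limma, adjusted p = 9.74e-08 and 2.23e-09). In this comparison 9 of 10 body wall muscle markers rose and none fell (8 and 1 with reads scaled to the total). Of 6 pharynx markers 4 rose and 1 fell (3 and 2 with that scaling). Of 9 neuron markers 6 fell and none rose (9 and 0 with that scaling). Of 9 germline markers 7 rose and none fell (4 and 0), and all 31 tested major sperm protein genes rose (30). Of 7 intestine markers 5 rose and none fell (1 and 1). Their part in the result was not tested.

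Against mrps-38(P210L) the double mutant was lower for all 9 genes too, by 7.32-fold for mlt-8 to 19.2-fold for fbn-1, beside 40.0% of all tested genes called lower and 43.6% called higher. Here 9 of 10 body wall muscle, 6 of 6 pharynx and 9 of 9 neuron markers were also lower (8 with 1 higher for muscle under total-read scaling). All 9 germline markers and all 31 tested major sperm protein genes were higher. Of 7 intestine markers 2 were lower and none higher (0 and 2 under total-read scaling). Log2 differences were -4.26 ± 0.11 for fbn-1, -4.19 ± 0.10 for noah-2, -4.14 ± 0.09 for noah-1 and -4.13 ± 0.07 for lpr-3 (limma, adjusted p = 2.72e-14 to 5.41e-12). These comparisons share libraries, so their counts are not independent of each other.

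**Figure D2:**
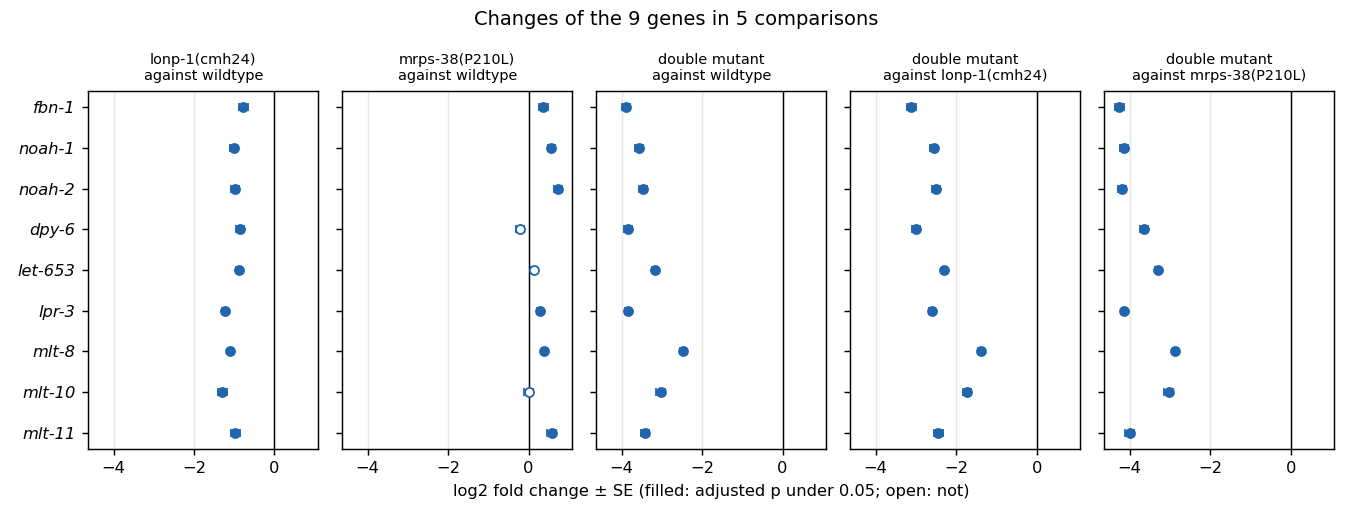
Log2 difference of each of the 9 genes in the 5 comparisons between genotypes, with bars of 1 SE from limma (n = 3 libraries per genotype), a line at 0, and open points where the adjusted p was 0.05 or above. All 9 genes lie below 0 in the comparisons of lonp-1(cmh24) and of the double mutant, while against wildtype mrps-38(P210L) runs from -0.21 for dpy-6 to 0.73 for noah-2, and for let-653 and mlt-10 that sign turns under scaling to total reads.

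The interaction asks whether the double mutant departs from what the separate mutations would give if their log2 effects added. It was negative for all 9 genes, beside 31.6% of all tested genes called lower and 34.4% called higher, with a median of -2.89 on the log2 scale beside 0.00 over all tested genes. Additive effects would have put noah-2 at 8843 normalized counts, where the double mutant had a geometric mean of 948. The same expectation for fbn-1 was 2309, where it had 205, and for mlt-10 it was 3738, where it had 1119. Departures were largest for fbn-1 (-3.49 ± 0.16) and noah-2 (-3.22 ± 0.14) and smallest for mlt-8 (-1.78 ± 0.09) and mlt-10 (-1.74 ± 0.15, limma, adjusted p = 4.24e-09, 2.66e-09, 5.18e-09 and 1.07e-06).

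Ratios of FPKM within a library are free of the scaling between libraries. mlt-8 and mlt-10 lie on chromosome II with 17177 bases between them. Their FPKM ratio, mlt-8 over mlt-10, was 2.61 ± 0.00502 in the double mutant, 2.06 ± 0.195 in lonp-1(cmh24), 2.34 ± 0.112 in mrps-38(P210L) and 1.79 ± 0.0961 in wildtype (SD, n = 3 each). The groups did not overlap in any of the 5 comparisons, each with p = 0.1 in an exact two-sided permutation test, the smallest that 3 against 3 libraries allow (0.167 after Benjamini-Hochberg adjustment over 10 tests). The ratio of noah-1 over noah-2 was 0.572 ± 0.0488 in the double mutant, 0.598 ± 0.00334 in lonp-1(cmh24), 0.553 ± 0.00974 in mrps-38(P210L) and 0.617 ± 0.0409 in wildtype. Of its 5 comparisons, mrps-38(P210L) against wildtype was the one without overlap (exact permutation p = 0.1).

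Another pair, chosen after its values were seen and so given without a test, was mlt-8 over fbn-1. Its FPKM ratio was 58.2 ± 2.73 in the double mutant, 17.5 ± 0.763 in lonp-1(cmh24), 22.1 ± 0.459 in mrps-38(P210L) and 22.2 ± 5.12 in wildtype. dpy-6 over noah-2, chosen likewise, was 0.0746 ± 0.00424 in the double mutant, 0.107 ± 0.00494 in lonp-1(cmh24), 0.0514 ± 0.00328 in mrps-38(P210L) and 0.0983 ± 0.00502 in wildtype.

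**Figure D3:**
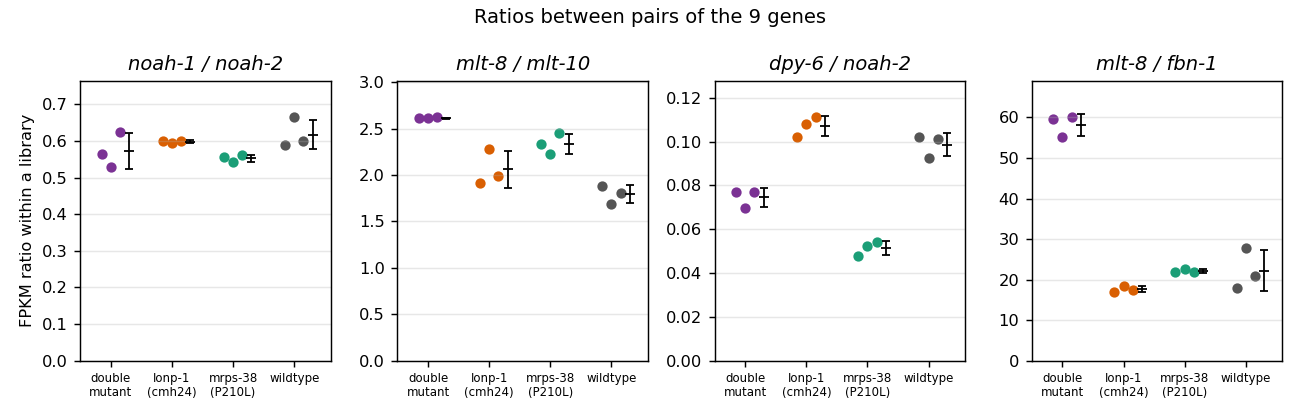
Ratio of FPKM of paired genes within each library, with a point per library and, beside the points, the mean and bars of 1 SD (n = 3), genotypes ordered double mutant, lonp-1(cmh24), mrps-38(P210L) and wildtype. For mlt-8 over mlt-10 the double mutant is highest at 2.61 and wildtype lowest at 1.79, and for noah-1 over noah-2 the means lie between 0.553 and 0.617.

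Other genes of the same kind were taken as 3 lists. The other apical matrix genes held cuticlins, cuticlin-like ZP proteins, lipocalins and leucine-rich repeat proteins. Of 45 tested, 39 were lower and 3 higher in the double mutant than in wildtype, beside 33.6% and 40.9% of all tested genes. The median of the 45 was -1.63 on the log2 scale. lpr-6, a lipocalin, averaged 204 ± 17.1 normalized counts in the double mutant, against 4069 ± 251 in wildtype (log2 difference -4.31 ± 0.06). sym-1, a leucine-rich repeat protein, averaged 574 ± 26 in the double mutant, against 9018 ± 471 in wildtype (-3.97 ± 0.06). Between lonp-1(cmh24) and wildtype, 33 of the 45 were lower and 3 higher, beside 32.1% and 30.6% of all tested genes. With reads scaled to the total 26 of the 45 were lower and 6 higher, where 3226 of the 15717 tested genes were lower and 6534 higher. Among the 45 the cuticlin cut-2 fell to 4949 ± 733 in lonp-1(cmh24), against 15430 ± 1409 in wildtype (-1.65 ± 0.10). cut-1, a cuticlin known from the dauer larva, rose (8.07 ± 0.61), with 1310 ± 1088 in lonp-1(cmh24), against 3.28 ± 2.08 in wildtype, so the 3 lonp-1(cmh24) libraries differed widely.

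In mrps-38(P210L), 12 of these 45 were higher and 13 lower than in wildtype, near the 31.5% and 34.7% of all tested genes called in those directions. With total-read scaling 5 were higher and 20 lower, where 2652 of the 15717 tested genes were higher and 7713 lower. cut-2 was higher, at 33107 ± 3316 in mrps-38(P210L), against 15430 ± 1409 in wildtype (1.10 ± 0.10). cutl-18, a cuticlin-like gene, was lower, at 43.2 ± 10.1 in mrps-38(P210L), against 461 ± 65.6 in wildtype (-3.40 ± 0.18), and so was dyf-7, whose ZP protein anchors sensory dendrites (-2.09 ± 0.22). Relative to lonp-1(cmh24), the double mutant had 35 lower and none higher, beside 24.5% and 29.8% of all tested genes.

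The other molting genes (28 tested) hold kinases, proteases, hedgehog-related and patched-related genes that worms need to shed the cuticle. Of these, 24 were lower and 1 higher in the double mutant than in wildtype, beside 33.6% and 40.9% of all tested genes. The median of the 28 was -1.87. The hedgehog-related wrt-10 averaged 364 ± 25.7 normalized counts in the double mutant, against 6005 ± 436 in wildtype (-4.04 ± 0.06). qua-1, also hedgehog-related, averaged 745 ± 28.6 in the double mutant, against 7672 ± 319 in wildtype (-3.36 ± 0.12). In lonp-1(cmh24) 25 of the 28 were lower and 1 higher, beside 32.1% and 30.6% of all tested genes. There nas-37, an astacin metalloprotease needed to escape the old cuticle, averaged 1060 ± 69.2, against 2813 ± 148 in wildtype (-1.41 ± 0.06). In mrps-38(P210L) 6 were higher and 10 lower than in wildtype (4 and 16 with total-read scaling), beside 31.5% and 34.7% of all tested genes.

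**Figure D4:**
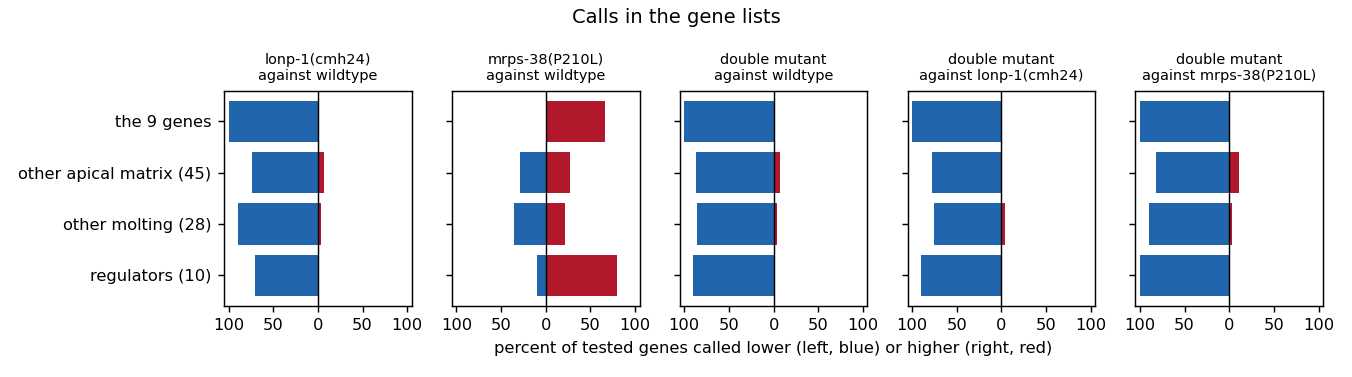
Percent of the tested genes of each list called lower (left of 0, blue) or higher (right of 0, red) by limma at an adjusted p under 0.05, for the 9 genes, the other apical matrix genes, the other molting genes and the regulators, in the 5 comparisons between genotypes. Lower calls fill most of each bar except in mrps-38(P210L) against wildtype, where 6 of the 9 genes and 8 of 10 regulators are higher, while the apical matrix list has 12 higher and 13 lower and the molting list 6 higher and 10 lower (with reads scaled to the total, 3 of the 9 genes and 8 of 10 regulators are higher, and the lists have 5 and 4 higher).

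Regulators of the molting cycle made up the third list, 10 genes tested. Of these, 9 were lower and none higher in the double mutant than in wildtype (median -2.02), and in lonp-1(cmh24) 7 were lower and none higher (median -0.62, with 7 lower and 2 higher under total-read scaling). In mrps-38(P210L) 8 were higher and 1 lower than in wildtype (median 0.62, 8 and 2 under total-read scaling). Against wildtype, 33.6% of all tested genes were lower and 40.9% higher in the double mutant. In lonp-1(cmh24) 32.1% were lower and 30.6% higher, and in mrps-38(P210L) 34.7% were lower and 31.5% higher. myrf-1, a membrane-bound transcription factor needed for molting, averaged 602 ± 21.4 normalized counts in the double mutant, 2080 ± 304 in lonp-1(cmh24), 5380 ± 98.3 in mrps-38(P210L) and 3322 ± 149 in wildtype (SD, n = 3 each). The nuclear receptor nhr-25 averaged 47.5 ± 6.05 in the double mutant, 178 ± 12.6 in lonp-1(cmh24), 724 ± 43.9 in mrps-38(P210L) and 297 ± 33.9 in wildtype. Both had the order of genotypes seen for noah-2.

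nhr-23, the nuclear receptor known to drive precuticle and molting genes, had another pattern. Its libraries held 971, 1074 and 1016 normalized counts in the double mutant, 1049, 838 and 964 in lonp-1(cmh24), 1388, 1462 and 1441 in mrps-38(P210L), and 1007, 932 and 970 in wildtype. The double mutant, lonp-1(cmh24) and wildtype overlapped, and mrps-38(P210L) was above all of them. The double mutant differed from wildtype by 0.07 ± 0.07 on the log2 scale (limma, adjusted p = 0.382), and lonp-1(cmh24) by -0.03 ± 0.07 (limma, adjusted p = 0.71), which became 0.20 under total-read scaling and was then called (adjusted p = 0.0253). The rise in mrps-38(P210L) was 0.56 ± 0.07 (limma, adjusted p = 2.09e-05) and was 0.31 under total-read scaling.

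**Figure D5:**
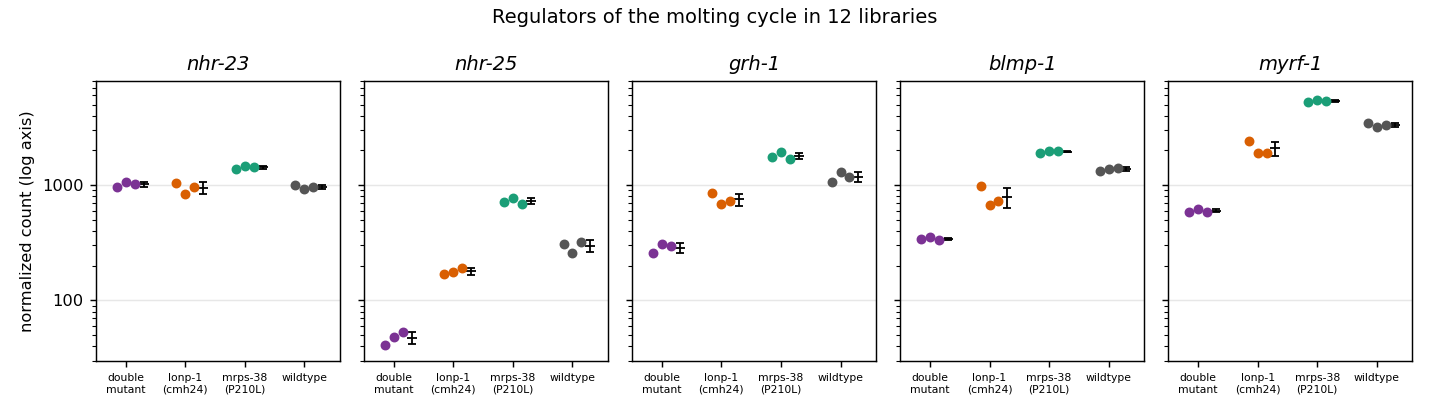
Normalized count of nhr-23, nhr-25, grh-1, blmp-1 and myrf-1 in each library, on a log axis, with a point per library and, beside the points, the mean and bars of 1 SD (n = 3), genotypes ordered double mutant, lonp-1(cmh24), mrps-38(P210L) and wildtype. nhr-23 averages 1020 in the double mutant, against 970 in wildtype, while nhr-25, grh-1, blmp-1 and myrf-1 are lowest in the double mutant, as for blmp-1 with 344 against 1371.

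Grainyhead (grh-1) and the zinc finger factor blmp-1, which open and bind regulatory regions in the epidermis, were lower in the double mutant than in wildtype by -2.04 ± 0.10 and -1.99 ± 0.10 on the log2 scale (limma, adjusted p = 9.94e-10 and 2.51e-09). In lonp-1(cmh24) they were lower by -0.66 ± 0.10 and -0.81 ± 0.10 (limma, adjusted p = 6.44e-05 and 1.62e-05).

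Markers of the epidermis, the tissue that makes most of the precuticle, were measured beside the 9 genes. Their summed normalized count over 12 genes was 24509 ± 185 in the double mutant, 29775 ± 1302 in lonp-1(cmh24), 49766 ± 1699 in mrps-38(P210L) and 42056 ± 1453 in wildtype (SD, n = 3 each). Library sums ran from 24299 to 24648 in the double mutant, from 28650 to 31202 in lonp-1(cmh24), from 47834 to 51031 in mrps-38(P210L) and from 40383 to 42996 in wildtype. Against wildtype, 11 of 12 were lower and 1 higher in the double mutant (median log2 difference -0.53), 8 were lower and 1 higher in lonp-1(cmh24) (5 and 2 with total-read scaling), and 8 were higher and 1 lower in mrps-38(P210L) (1 and 2 with total-read scaling). Of all tested genes, 33.6% were lower in the double mutant, 32.1% lower in lonp-1(cmh24) and 31.5% higher in mrps-38(P210L). No marker was at 0 in any genotype. Abundant markers weigh most in the sum, with vab-10 the highest in every genotype (8183 ± 52.5 in the double mutant, 11272 ± 309 in wildtype). The falls did not follow abundance. Among the less abundant markers, che-14 (92 ± 4.65 in the double mutant, 475 ± 55.3 in wildtype) and eff-1 (162 ± 14.9, 578 ± 21.8) fell further than vab-10. So did the more abundant dpy-7 (554 ± 18.9, 7316 ± 411). By contrast, lin-26 (1104 ± 18.4, 1208 ± 27.3) fell less, and elt-1 (267 ± 22.2, 206 ± 14.2), the least abundant in wildtype, was higher. The summed count of the 9 genes came to 26.5 ± 0.209% of that sum in the double mutant, 104 ± 10.3% in lonp-1(cmh24), 175 ± 1.17% in mrps-38(P210L) and 153 ± 8.8% in wildtype. Without dpy-7, a collagen that follows the molting cycle, the share was 27.1% in the double mutant, 117% in lonp-1(cmh24), 213% in mrps-38(P210L) and 186% in wildtype. The part of the epidermis markers in the results was not tested. Of 8 markers of the seam, the epidermal cells along each flank, 7 were lower and 1 higher in the double mutant than in wildtype, and 6 were higher and none lower in mrps-38(P210L).

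By likeness of profile over the 12 libraries, among 12912 other genes with a mean of 50 or more normalized counts, the mean profile of the 9 genes was nearest to that of dpy-8, a cuticle collagen (root mean square difference of centred log2 values 0.067). Next came dao-2 (0.082), the lipocalin lpr-5 (0.1), the collagen dpy-9 (0.112) and subs-4 (0.123). dpy-8 averaged 699 ± 24.6 normalized counts in the double mutant, 3834 ± 342 in lonp-1(cmh24), 9834 ± 559 in mrps-38(P210L) and 7136 ± 363 in wildtype. Taken singly, noah-1 (0.105), noah-2 (0.135) and mlt-11 (0.092) were each nearest to lpr-5, lpr-3 to the collagen dpy-2 (0.076), and mlt-10 to the collagen sqt-3 (0.083). Among themselves, noah-2 was nearest to mlt-11 (0.084), and mlt-8 lay farthest from their mean (0.414). These values describe the same 12 libraries that gave the levels above.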

How the data were processed

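Per the submitters' processing notes, STAR, featureCounts and DESeq2 were used with build WBcel235; their versions and the strand setting of the counting are not given in the sources used here. For each gene and library the authors deposited a DESeq2 normalized count, a signal divided by that library's size factor, and FPKM. Within a library every normalized count was a multiple of the same step (100% whole within 0.01), so whole reads were recovered, with size factors of 0.8479 to 1.2153.

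The test was limma 3.58.1 (R 4.3.3; intensity trend, robust) on log2(normalized count + 1), 12 libraries in 1 fit, 15717 genes with a mean of 10 or more, two-sided, Benjamini-Hochberg at 0.05. "Rose" and "fell" mean an adjusted p under 0.05, and fold changes are on that scale. The code was tested on simulated data. Alternatives were other pseudocounts (0.5, 5), filters (none, 50), TMM factors, scaling to total reads, FPKM + 0.1, edgeR 4.0.16 and DESeq2 1.42.0 on recovered reads, each library left out, a replicate block, and the compared genotypes fitted alone (not for the interaction).

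The 9 genes, the lists and the markers were chosen with earlier results of these data known. The naming rule takes from each list, per comparison, the called genes that changed most (up to 3, mean of 50 or more), and 5 regulators always. Of the list entries, spia-1, pqn-47 and opt-2 were not matched. Coordinates are the deposited ones; 99.7% of gene spans equal those of the Ensembl annotation of WBcel235.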

Additional observations from a re-analysis of the deposited data

Results flagged for a closer look

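For all 9 genes the log2 effect of the lonp-1 mutation differed between worms with and without mrps-38(P210L), by the interaction term in limma (adjusted p = 1.66e-10 to 1.07e-06). With mrps-38(P210L) minus without it, the effect was -3.49 for fbn-1, -3.22 for noah-2, -3.13 for noah-1 and -3.03 for mlt-11. It was -2.89 for lpr-3, -2.79 for dpy-6 and -2.42 for let-653. The smallest departures were -1.78 for mlt-8 and -1.74 for mlt-10. In every case the effect was more negative in worms that also carried mrps-38(P210L). Of all tested genes 31.6% had an interaction called in that direction.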

How the results depend on the processing

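All 9 genes were called lower in lonp-1(cmh24) against wildtype, in the double mutant against each other genotype, and in the interaction, under every alternative run (23, and 22 for the interaction). Their log2 values ranged from -4.03 to -2.44 in the double mutant against wildtype, from -3.33 to -1.31 against lonp-1(cmh24) and from -4.36 to -2.6 against mrps-38(P210L). For mrps-38(P210L) against wildtype the count of 6 higher and 0 lower became 3 higher and 1 lower with reads scaled to the total and on FPKM, and 1 was lower (dpy-6) with edgeR. Leaving out 1 library gave 0 to 1 lower, the 1 without wildtype replicate 2. In that comparison mlt-10 was -0.01 with TMM factors, -0.02 with edgeR, -0.25 with total reads or FPKM, and -0.07 to 0.09 with 1 library left out, and let-653 was -0.13 with total reads or FPKM. These scalings moved the median of all genes, and whether another cause acted was not tested. Of all calls in mrps-38(P210L) against wildtype, 25.6% were higher with total-read scaling and 47.6% with the authors' factors. In lonp-1(cmh24) against wildtype these shares were 66.9% and 48.8%, for the double mutant set against lonp-1(cmh24) 30.3% and 54.9% (36.4% with TMM factors), and for the double mutant set against mrps-38(P210L) 62.3% and 52.2%.

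No pairing of the libraries by replicate number was seen in these values. Deviations from the genotype means correlated at -0.159 to 0.122 between libraries of the same number (18 pairs) and at -0.18 to 0.195 otherwise (36 pairs). By mean correlation, 3 of 12 libraries were most like the libraries of their own number. With the replicate block all counts over the 9 genes were the same, with 6 higher in mrps-38(P210L) against wildtype, and over all genes lonp-1(cmh24) against wildtype had 4769 higher and 4989 lower, against 4805 and 5043 without it. On the recovered reads edgeR called 10474 genes in lonp-1(cmh24) against wildtype, 10262 in mrps-38(P210L) against wildtype and 12022 in the double mutant against wildtype, where limma called 9848, 10418 and 11704.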

Other observations

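Some of the 9 genes share exonic bases with neighbours, and the strand setting of the counting is not given. Reads from bases shared by a gene and its partner on the opposite strand therefore cannot be told apart. For bases that mlt-10 shares with lips-7, which lies on the same strand, strand does not separate the reads either. upp-1, opposite to fbn-1, averaged 1374 ± 65.3 normalized counts in the double mutant, 1234 ± 74 in lonp-1(cmh24), 1433 ± 16.8 in mrps-38(P210L) and 1183 ± 165 in wildtype (SD, n = 3 each). F16F9.1, opposite to dpy-6, averaged 254 ± 13.3 in the double mutant, 186 ± 15.6 in lonp-1(cmh24), 252 ± 23.3 in mrps-38(P210L) and 202 ± 13.7 in wildtype. lips-7, on the same strand as mlt-10, averaged 126 ± 20.7 in the double mutant, 279 ± 18.6 in lonp-1(cmh24), 349 ± 18.9 in mrps-38(P210L) and 411 ± 74.5 in wildtype.

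Between mlt-10 and mlt-8 lie 3 other genes of the table. C09E8.1, with a mean of 924 normalized counts, differed by 0.07 ± 0.08 on the log2 scale between the double mutant and lonp-1(cmh24) and by -0.12 ± 0.08 between the double mutant and wildtype (limma, adjusted p = 0.528 and 0.192), where mlt-10 and mlt-8 both fell. Between the double mutant and mrps-38(P210L) it fell as they did (-0.63, limma, adjusted p = 1.01e-05), and its interaction was negative (-0.44, limma, adjusted p = 0.00544). W08F4.5, with a mean of 29.1, rose in the double mutant against wildtype (0.82 ± 0.24, limma, adjusted p = 0.0077). anr-27, with a mean of 2.3, was too low to test.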
